A study of Mus musculus with 2 samples.

Results

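The genes described here encode 2 kinds of proteins of the growing axon: the membrane proteins Gap43, Basp1, Marcks and Marcksl1, and the collapsin response mediator proteins (CRMPs) Crmp1, Dpysl2, Dpysl3, Dpysl4 and Dpysl5. They were chosen by name, as 9 of the 43346 mouse genes and of the 21474 protein-coding genes in the files, and all 9 were found. RNA longer than 200 nucleotides was sequenced from whole mouse forebrain at embryonic day 15.5. The group was a single one of 2 libraries, with no treatment, mutation or other age to compare with. The strain was B6NCrl and both sexes were mixed. The pools held forebrains of 78 embryos (replicate 1) and 62 embryos (replicate 2), and the labels give both pools the same donor record. Each library was made from 10 ng of RNA with spike-in controls. Any spread given below is between these 2 pools, so it does not show how single embryos vary, and no test was made, since the smallest two-sided sign-flip p with 2 libraries is 0.5.

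Expected counts, the estimated reads per feature, summed to 38720511 in replicate 1 and 35103430 in replicate 2. Markers of forebrain cells were present. All 8 pan-neuronal and all 7 radial glia markers reached 1 TPM, a unit of transcript abundance corrected for length and library size, in both libraries, and 1 of 5 skin, muscle and liver markers did. Of all protein-coding genes, 60.6% did. Blood was present, with erythroid markers summing to 9478 and 8655 TPM. In RNA of a whole tissue, fewer cells of a type and less RNA per cell cannot be told apart.

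A growth cone is the motile tip of an axon or dendrite, where membrane, actin and microtubules are rebuilt in response to guidance cues. Gap43, Basp1 and the MARCKS proteins lie on the inner face of its membrane, where they bind acidic phospholipids and affect the actin beneath, and protein kinase C and calmodulin control their binding. The CRMPs are cytosolic proteins that form tetramers and bind tubulin, actin regulators and transport motors. They act downstream of the repulsive cue semaphorin 3A, and their phosphorylation near the carboxyl end lowers their hold on tubulin.

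The membrane proteins differ in how they are anchored, and the coding sequence of the amino end shows this. Basp1, Marcks and Marcksl1 have a glycine codon after the start codon, the residue that carries the myristoyl group of these proteins. Gap43 has no glycine there. It has cysteine codons at positions 3 and 4, the residues known to be palmitoylated. The stretches below are the first 14 codons from the GENCODE M21 transcripts on GRCm38, written 5′ to 3′ on the coding strand. Capitals mark the glycine codon or the cysteine codons.
Basp1: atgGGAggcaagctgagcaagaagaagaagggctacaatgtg
Marcks: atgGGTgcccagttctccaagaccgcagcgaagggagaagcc
Marcksl1: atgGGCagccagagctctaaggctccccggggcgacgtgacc
Gap43: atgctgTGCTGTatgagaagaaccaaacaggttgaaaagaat

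Marcks and Marcksl1 share a basic domain that binds membrane and calmodulin and is phosphorylated on serines by protein kinase C. In Marcks it was found as the 25 codons richest in lysine and arginine, codons 145 to 169, and in Marcksl1 as the codons aligned to these, 87 to 110. The Marcks stretch (chr10:37136531-37136605, minus strand, within the coding part of an exon) has 13 lysine or arginine, 5 serine and 5 phenylalanine codons. The Marcksl1 stretch (chr4:129514888-129514959, plus strand, also coding) has 12, 3 and 4. Of 24 aligned codons, 19 encode the same residue, and 53 of 72 bases are the same. Capitals mark the serine codons.
Marcks: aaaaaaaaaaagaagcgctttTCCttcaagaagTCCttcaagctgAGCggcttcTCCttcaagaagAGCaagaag
Marcksl1: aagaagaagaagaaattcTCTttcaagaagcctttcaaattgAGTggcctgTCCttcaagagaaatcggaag

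Over their whole length, these stretches included, the membrane proteins are built largely from few kinds of residue. Alanine, lysine, glutamate and proline made up 55.9% of the 227 residues encoded by Gap43, 70.8% of the 226 of Basp1, 63.8% of the 309 of Marcks and 49.5% of the 200 of Marcksl1. The same residues made up 24.5 to 26.5% of the annotated CRMP forms. Marcks and Marcksl1 were identical at 50% of 196 aligned residues. The other pairs of membrane proteins were identical at 31.7 to 46.3%, with Basp1 and Marcks the highest of them at 46.3% of 203.

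The CRMPs carry a cluster of phosphorylation sites near the carboxyl end, best known in Dpysl2 (CRMP2). There, Cdk5 phosphorylates serine 522 and Gsk3 then phosphorylates serine 518, threonine 514 and threonine 509. The family differs at these positions. Crmp1 keeps a serine or threonine codon at 3 of the 4 aligned positions, with alanine at 514. Dpysl4 and Dpysl5 keep it at 1 each, and both at the position aligned to 514. There the Dpysl4 serine is followed by glycine, while the threonines of Dpysl2 and Dpysl5 are followed by proline. Dpysl4 has proline, alanine and cysteine at the others, and Dpysl5 has histidine, aspartate and arginine. Serine codons lie on both sides of that cysteine, and threonine codons directly beside that aspartate and arginine. The Dpysl5 stretch was aligned with gaps, so the alignment alone does not show which sites are absent. The stretches are codons 507 to 524 of Dpysl2 (chr14:66806970-66807023, minus strand), Crmp1 (chr5:37288862-37288915, plus strand) and Dpysl4 (chr7:139099797-139099850, plus strand) and codons 499 to 519 of Dpysl5 (chr5:30793988-30794050, plus strand), all within a coding exon. Capitals mark the serine or threonine codons aligned to the 4 sites.
Dpysl2: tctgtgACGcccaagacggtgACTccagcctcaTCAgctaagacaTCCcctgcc
Crmp1: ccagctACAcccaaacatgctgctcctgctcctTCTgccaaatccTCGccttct
Dpysl4: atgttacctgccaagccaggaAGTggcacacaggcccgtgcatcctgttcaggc
Dpysl5: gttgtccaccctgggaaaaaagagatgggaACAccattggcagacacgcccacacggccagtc

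All 9 genes were abundant. Each reached 1 TPM in both libraries, against 60.6% of all protein-coding genes, and 8 of 9 reached 100 TPM in both, against 7.55%. The genes were proposed with earlier results of these data known, so these shares are a description of the set. TPM corrects for transcript length and can be compared between genes as far as the annotated lengths hold. Together the 9 genes held 5672 TPM in replicate 1 and 5581 TPM in replicate 2, or 0.567 and 0.558% of all TPM. The membrane proteins and the CRMPs contributed about equally, with 2816 ± 48.1 TPM (SD, n = 2) for the 4 membrane proteins and 2810 ± 15.7 TPM for the 5 CRMPs. By reads, without correction for length, the CRMPs were the larger part, with 0.609 and 0.608% of mouse-gene reads against 0.291 and 0.287%.

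Among the membrane proteins, Marcksl1, the smaller MARCKS relative, stood highest of all 9 genes. It measured 1809 TPM in replicate 1 and 1737 TPM in replicate 2, a mean of 1773 ± 50.6 TPM and rank 27 of the protein-coding genes. Marcks itself (ENSMUSG00000069662.5, chr10:37133375-37138920) measured 189 and 177 TPM, a mean of 183 ± 8.32 TPM and rank 825. The levels of this pair did not overlap. Marcksl1 (ENSMUSG00000047945.6, chr4:129513581-129515985) exceeded Marcks by 3.26 and 3.30 on the log2 TPM scale, a mean of 3.28 ± 0.02 or 9.71-fold. By reads, without correction for length, the gap was 1.89 on the log2 scale or 3.70-fold. The Marcks transcript is 4048 bases long, 2733 of them 3′ UTR, and the Marcksl1 transcript 1605. A processed pseudogene named Marcksl1-ps4 was listed at 2.23 and 1.21 TPM, with 10 and 5 reads beside the 63759 and 56266 of Marcksl1.

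Gap43, the classic marker of axon growth and a substrate of protein kinase C, measured 596 and 578 TPM, a mean of 587 ± 13.2 TPM and rank 151. Basp1 (also called CAP-23 or NAP-22), which resembles Gap43 in composition and membrane binding, measured 256 and 290 TPM, a mean of 273 ± 24.0 TPM and rank 510. Gap43 (ENSMUSG00000047261.9, chr16:42248442-42340651) was therefore the higher of these in both pools. The log2 TPM ratio of Gap43 over Basp1 (ENSMUSG00000045763.7, chr15:25363277-25413764) was 1.22 and 0.99, a mean of 1.11 ± 0.16 or 2.15-fold. By reads it was 0.70, or 1.62-fold. Gap43 overlaps the microRNA gene Mir6540 on the same strand, which was listed at 0 in both libraries.

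**Figure D1:**
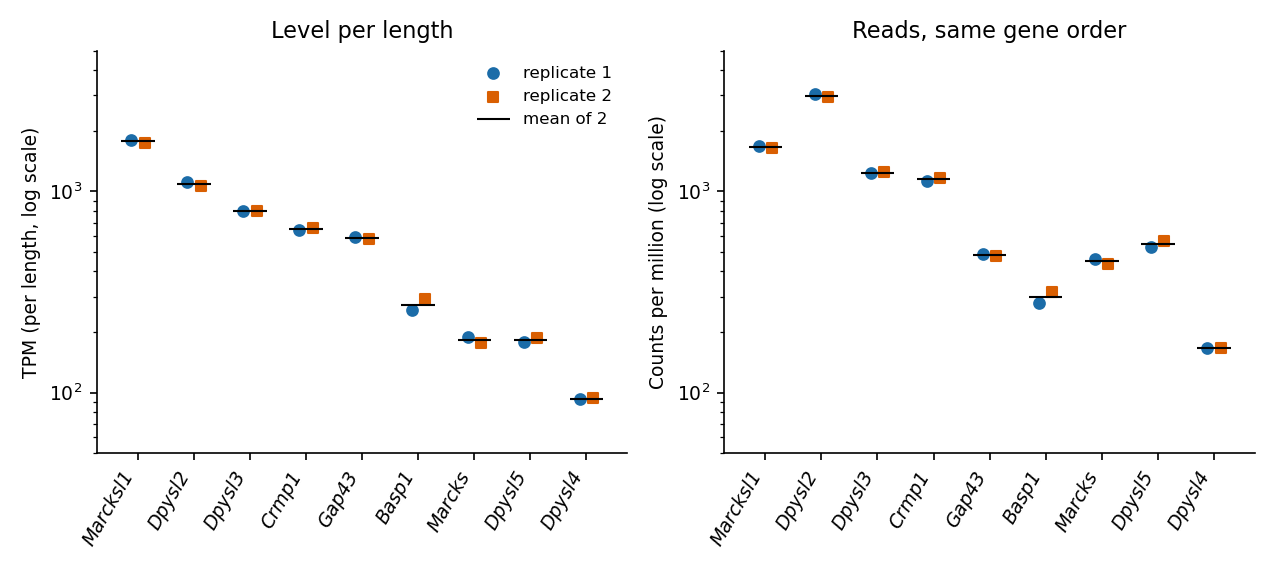
Level of each gene in both libraries, as TPM on a log axis (left) and as CPM, counts scaled to library size only, on a log axis (right), with genes in the same order from the highest to the lowest TPM. Circles are replicate 1, squares replicate 2 and bars their mean; Marcksl1 leads by TPM (1773) and Dpysl2 by CPM (2983), and Dpysl4 is lowest in both panels.

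Among the CRMPs, Dpysl2 (CRMP2; ENSMUSG00000022048.8, chr14:66802864-66868688), which binds tubulin dimers and promotes axon formation, was the most abundant. It measured 1108 TPM in replicate 1 and 1060 TPM in replicate 2, a mean of 1084 ± 34.1 TPM and rank 62 of the protein-coding genes. Dpysl3 (CRMP4), which also binds actin, measured 799 and 800 TPM, a mean of 799.5 ± 0.785 TPM and rank 98. Crmp1, which takes part in semaphorin 3A signalling in cortical neurons, measured 644 and 659 TPM, a mean of 651 ± 10.7 TPM and rank 131. These 3 genes lay between 644 and 1108 TPM in the single libraries, and the other CRMPs lay between 92.6 and 186 TPM. Dpysl5 (CRMP5), the most divergent member of the family, measured 178 and 186 TPM, a mean of 182 ± 5.74 TPM. Dpysl4 (CRMP3) was the lowest of all 9 genes at 92.6 and 94.1 TPM, a mean of 93.4 ± 1.05 TPM. Its rank was still 1801, above 91.6% of the protein-coding genes.

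Since CRMPs assemble into mixed tetramers, the share of each gene in the family total was also computed. Dpysl2 held 39.3 and 37.9% of the summed CRMP TPM, a mean of 38.6 ± 0.996%. Dpysl3 held 28.5 ± 0.187% and Crmp1 23.2 ± 0.512%. Dpysl5 and Dpysl4 held 6.49 ± 0.241% and 3.32 ± 0.0561%. The order was the same in both pools. By reads, without correction for length, Dpysl2 held 49.0%, Dpysl3 20.4%, Crmp1 18.9%, Dpysl5 9.01% and Dpysl4 2.73%. These are shares of RNA, and protein was not measured. Dpysl2 exceeded Dpysl5 by 2.57 ± 0.09 on the log2 TPM scale (5.94-fold) and Dpysl4 by 3.54 ± 0.06 (11.6-fold).

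The level of a gene was called apart from its neighbour in the order when the log2 TPM ratio had the same sign in both libraries and its mean exceeded its SD. By this measure 7 of 8 neighbouring pairs were apart. The order came from the means of the same 2 libraries, so the direction of each gap was largely set beforehand. No share for other pairs of genes was computed, and the count is a description. Marcks and Dpysl5 were not, with log2 ratios of 0.08 and -0.08 and a mean of 0.00 ± 0.11. The smallest gap among the pairs called apart was that of Crmp1 over Gap43, 0.15 ± 0.06 or 1.11-fold. The widest was that of Gap43 over Basp1. Dpysl2 exceeded Dpysl3 by 0.44 ± 0.05 (1.36-fold), and Dpysl3 exceeded Crmp1 by 0.30 ± 0.02 (1.23-fold). By reads, without correction for length, these gaps were 2.41-fold and 1.08-fold. The SD between pools does not cover error in the annotated lengths. Marcksl1 lay 19.0-fold above Dpysl4. With a single group of 2 libraries, no gene could be sought whose pattern resembles that of any of these.

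The CRMPs descend from the enzyme family of dihydropyrimidinase (Dpys), which breaks down pyrimidine bases, and have lost that activity. Crmp1, Dpysl2, Dpysl3 and Dpysl4 encode proteins identical at 69.2 to 76.5% of aligned residues in any pairing. Dpysl5 was identical to them at 50.3 to 51.8%, less than the 57.7% between Dpysl5 and Dpys and the 58.3 to 59.6% between the other CRMPs and Dpys. Dpys was listed at 0.09 and 0.18 TPM in the forebrain, with 5 and 9 reads. Upb1, which catalyses the last step of the same pathway, was listed at 0.15 and 0.07 TPM, and Dpyd, which catalyses the first, reached 4.64 ± 1.12 TPM. Forebrain RNA thus held the CRMPs at levels between 93.4 and 1084 TPM and their enzyme relative at 0.135 ± 0.0636 TPM.

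**Figure D2:**
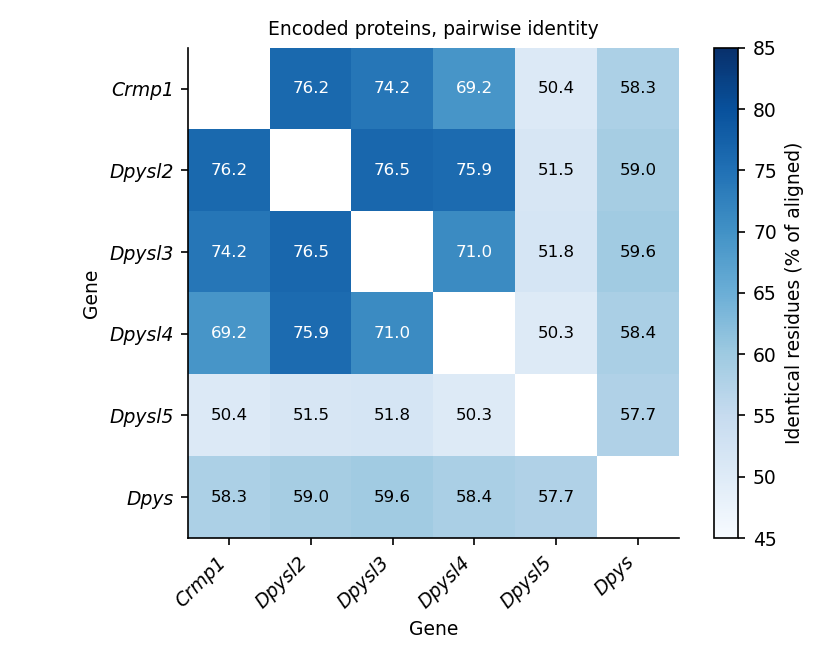
Identity between the proteins encoded by the CRMP genes and Dpys, in percent of aligned residues from pairwise global alignment, with genes on both axes and darker blue for higher identity. Crmp1, Dpysl2, Dpysl3 and Dpysl4 are at 69.2 to 76.5% with each other and Dpysl5 is at 50.3 to 51.8% with each of them.

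Across the 9 genes, 26 transcripts were quantified, of which 16 are annotated as protein-coding. Basp1, Marcks, Marcksl1 and Dpysl2 had 1 transcript each in the annotation, so no isoform of them could be measured. A long form of CRMP2 is known, but only the 572-codon form of Dpysl2 was in the files. Of the 26 transcripts, 6 were under 1% of their gene in both libraries, and 3 of these were listed at 0 in both. Gap43 RNA was nearly all of its main coding transcript, at 594 and 575 TPM.

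Crmp1 (ENSMUSG00000029121.11, chr5:37241940-37292133) had 2 quantified transcripts, both coding, with separate first exons. The short form encodes 572 codons and measured 527 and 537 TPM. The long form encodes 686 codons and measured 116 and 122 TPM, or 18.1 and 18.5% of the gene, a mean of 18.3 ± 0.292%. The deposited intervals of the long form, whose level is not stated, ran from 107 to 120 and from 112 to 126 TPM, so the pools overlapped. The forms share 1677 coding bases and 12 identical exons. They differ in 381 coding bases of the long form against 39 of the short form, each in 1 exon of its own, and their starts lie 3684 bp apart. Exonic bases found in only 1 of the forms numbered 478 for the long and 333 for the short, and the division of reads between them rests on these. The M21 gene begins at 37241940, before the long form at 37242080 and the short form at 37245764. An M21 transcript that begins there was not quantified, and these base counts leave it out. The start of the short form resembles the start of Dpysl2, with 10 of 13 codons encoding the same residue, and the long form begins with other codons. Below are the first 13 codons of the short form of Crmp1 (chr5:37246058-37246096) and Dpysl2 (chr14:66868330-66868368, minus strand) and the first 30 of the long form of Crmp1 (chr5:37242145-37242234). Capitals mark the start codon.
Crmp1 short form: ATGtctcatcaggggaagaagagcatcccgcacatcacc
Dpysl2: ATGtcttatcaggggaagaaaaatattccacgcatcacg
Crmp1 long form: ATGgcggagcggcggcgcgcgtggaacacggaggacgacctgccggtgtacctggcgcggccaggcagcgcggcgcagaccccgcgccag

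RefSeq promoter windows on GRCm38.p6, from 250 bases before a start to 50 after it, were found for 4 of the 9 genes: Basp1, Marcksl1, Dpysl5 and Crmp1, the last with 2 windows. The downstream Crmp1 window is at the start of the short form. The upstream one is at a RefSeq start, 37242058, at which no GENCODE transcript begins, and the long form begins after it, at 37242080. The window at the upstream RefSeq start of Crmp1 had 41 CG dinucleotides, more than 96.5% of 32851 windows of the same length, and the window at the downstream start had 20, more than 73.5%. The median window had 7. The Basp1 window had 38, that of Marcksl1 22 and that of Dpysl5 19. Neither TATAAA, held by 13.6% of all windows on either strand, nor CAGCTG, held by 16.3%, was in any of the 5. A missing match says only that these letters are not in the window. Shown are the part of the upstream window before the annotated gene (chr5:37241808-37241939, plus strand, 18 CG dinucleotides, 77.3% G or C) and the 250 bases before the short form's start at 37245764 (chr5:37245514-37245763, plus strand, 16 CG dinucleotides, 59.6% G or C). The upstream stretch ends 119 bases before the RefSeq start, while the other reaches up to its start. The latter lies within the first intron of the long form. Capitals mark CG dinucleotides.
Crmp1 upstream start: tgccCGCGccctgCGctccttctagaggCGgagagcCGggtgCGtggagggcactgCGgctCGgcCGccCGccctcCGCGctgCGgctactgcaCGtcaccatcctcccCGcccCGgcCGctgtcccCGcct
Crmp1 downstream start: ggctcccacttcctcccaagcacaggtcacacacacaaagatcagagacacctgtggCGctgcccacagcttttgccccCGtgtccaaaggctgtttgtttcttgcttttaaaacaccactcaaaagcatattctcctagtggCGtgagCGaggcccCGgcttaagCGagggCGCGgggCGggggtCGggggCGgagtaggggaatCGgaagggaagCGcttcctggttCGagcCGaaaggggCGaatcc

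The short form, whose window had fewer CG dinucleotides than the upstream one, held 81.7% of Crmp1 RNA. Crmp1 overlaps Evc, a ciliary gene on the opposite strand that measured 5.94 and 7.75 TPM. Whether counting used strand is not stated, and Evc had 338 and 417 reads against 42700 and 40168 of Crmp1.

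Among the genes with noncoding transcripts in the annotation, Dpysl4 had the largest share of RNA that codes for no protein. Dpysl4 (ENSMUSG00000025478.11, chr7:139086001-139102704) had a main form of 593 codons at 57.9 and 53.9 TPM. A form of 572 codons with another first coding exon measured 15.2 and 16.0 TPM. A retained-intron transcript measured 9.17 and 8.61 TPM and another 8.80 and 9.29 TPM. Together the noncoding transcripts held 19.4 and 19.0% of the gene's TPM, a mean of 19.2 ± 0.268%. In Gap43, Dpysl3 and Dpysl5 this share was at most 3.52% in either library. Basp1, Marcks, Marcksl1, Crmp1 and Dpysl2 have no noncoding transcript in the annotation, so theirs was 0 by construction. Counting coding transcripts only, Dpysl4 measured 74.7 and 76.2 TPM and remained the lowest of the 9 genes. A coding transcript of 157 codons was listed at 1.60 and 6.31 TPM, with deposited intervals that overlapped between the pools. The coding parts of the 593-codon and 572-codon forms share 1677 bases and differ in 102 and 39, with starts 3246 bp apart. Of the 1088 exonic bases found only in the 572-codon form, 927 lie in its 3′ UTR, so its level also rests on that end of the transcript.

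Dpysl5 (ENSMUSG00000029168.10, chr5:30711564-30799375) had 2 main transcripts, with annotated starts 330 bp apart, for the same protein of 564 codons. The transcript from the upstream start measured 96.5 and 94.9 TPM and that from the downstream start 73.1 and 84.2 TPM. The upstream one held 54.1 and 50.9% of the gene and the other 41.0 and 45.2%. The deposited intervals of the pools overlapped for each of them.

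**Figure D3:**
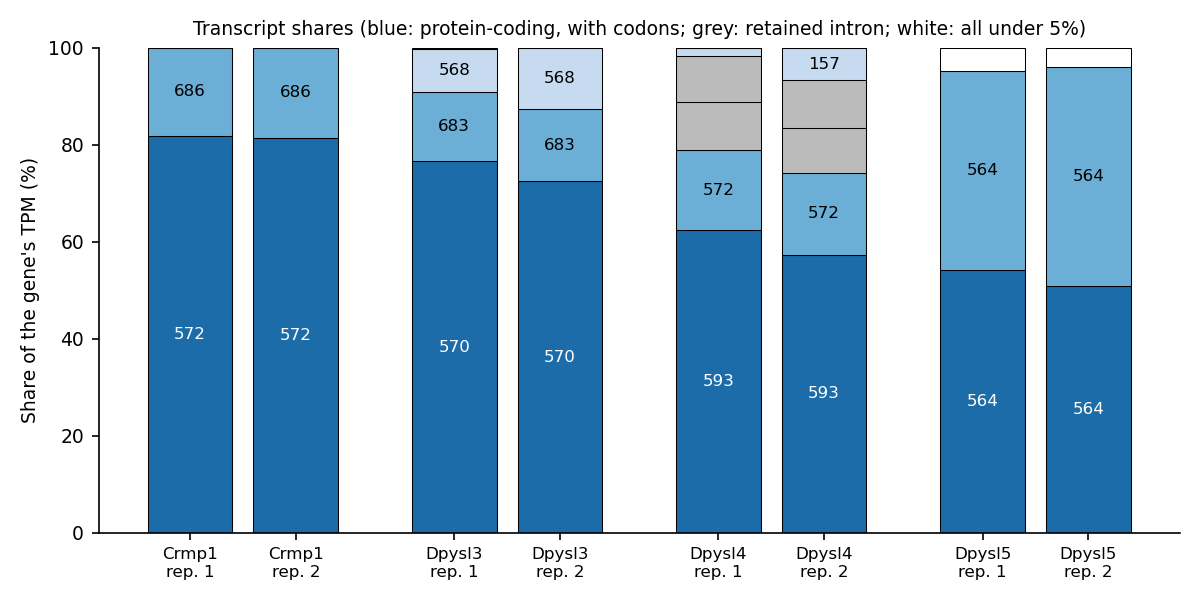
Share of each gene's TPM (percent, y axis) held by its annotated transcripts in the 4 CRMP genes with more than 1 transcript, with 1 bar per library. Blue segments are protein-coding transcripts, grey retained-intron transcripts and white all transcripts under 5%; the numbers are the codons each coding transcript encodes, the lower Dpysl5 segment is that of the upstream start, and the grey segments of Dpysl4 sum to 19.4 and 19.0%.

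Dpysl3 (ENSMUSG00000024501.15, chr18:43320984-43438286) had 3 coding transcripts with separate first exons, of which 2 encode short forms and 1 a long form, as in Crmp1. The main short form, of 570 codons, measured 612 and 580 TPM. The other short form, of 568 codons, measured 71.0 and 100.5 TPM, and its deposited intervals, 44.3 to 89.8 and 82.8 to 117 TPM, overlapped. Added together, the short forms were closer between pools than either alone, at 682.6 and 680.1 TPM. The long form, of 683 codons, measured 115 and 120 TPM, or 14.4 and 15.0% of the gene, a mean of 14.7 ± 0.438%. It starts 44909 bp from the main short form and 65014 bp from the other. At the positions aligned to the 4 phosphorylation sites of Dpysl2, Dpysl3 has a serine or threonine codon at all 4.

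The long forms of Dpysl3 and Crmp1 were at like levels, 117 ± 3.61 and 119 ± 3.87 TPM, although the short forms of Dpysl3 were at 681 ± 1.75 and that of Crmp1 at 532 ± 6.87 TPM. Their own starts were related, with 62 of 104 aligned residues identical (59.6%). The Dpysl3 long form also differs from the short forms at its 3′ end. Its annotated 3′ UTR has 3348 bases, against 44 and 105 in the short forms. Reads from the part missing in the short forms could be assigned only to the long form, whichever first exon their RNA carried. Like levels of the Dpysl3 and Crmp1 long forms thus do not show like use of their first exons. Of 3700 exonic bases found only in the Dpysl3 long form, 3243 are 3′ UTR. Its share by expected counts, without correction for length, was 31.8%. The Dpysl3 long-form estimate therefore rests on the 3′ end as well as on the start, unlike that of Crmp1, where 32 of the 478 bases are 3′ UTR and the share by counts was 19.0%.

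The pools could be compared gene by gene, though with 1 library a side this is a description. Counts were scaled by TMM factors, and the log2 ratio of replicate 2 over replicate 1 was set beside that of all genes. At an absolute log2 ratio of 0.5, 0 of 9 genes differed, against 1.5% of the 11305 genes at a mean of 5 TPM or more. Basp1 had the largest ratio of the 9, 0.20 (95% interval 0.16 to 0.24, counting error only), or 1.15-fold, with 10489 reads in replicate 1 and 10915 in replicate 2. Among the 1622 protein-coding genes at 100 TPM or more in both libraries, 1.79% had a larger absolute ratio, and among the 11305 genes, which include less abundant ones, 11.0% did. Dpysl5 followed at 0.09 and Crmp1 at 0.05. Dpysl3 was at 0.03, Dpysl4 at -0.01, Gap43 at -0.03, Marcksl1 and Dpysl2 at -0.04 and Marcks at -0.07. Except for Basp1, all lay within 0.15, the 95th percentile of the absolute ratio among these abundant genes. Scaling by the spike-ins added the same 0.20 to the ratio of every gene, so the signs of ratios near 0 depend on the scaling and only differences between genes do not.

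Marker levels of other cell types also differed between the pools. All 4 choroid plexus markers were higher in replicate 1, with sums of 820 and 365 TPM. All 4 intermediate progenitor and all 4 cell division markers were higher in replicate 2, with sums of 276 and 322 TPM and of 372 and 423 TPM. The liver genes Alb and Afp had 1 read each in replicate 1 and 108 and 152 reads in replicate 2, or 2.58 and 3.56 TPM. Pan-neuronal markers summed to 2982 and 2946 TPM. The part of these differences in the Basp1 ratio was not tested.

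**Figure D4:**
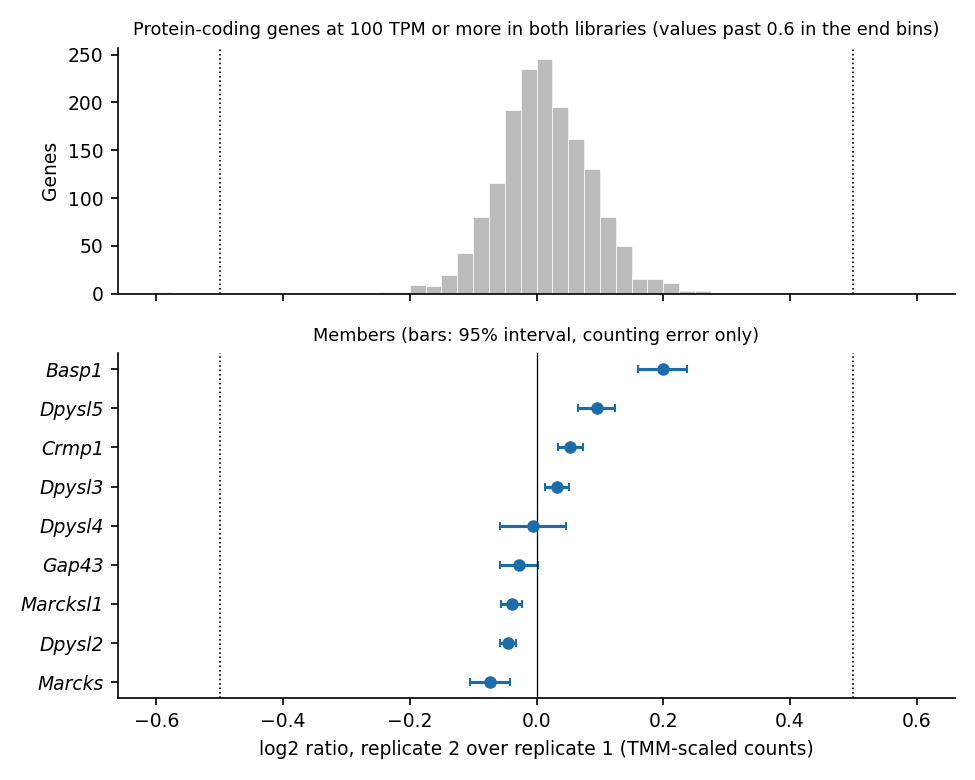
Log2 ratio of replicate 2 over replicate 1 of TMM-scaled counts (x axis in both panels), as a histogram of protein-coding genes at 100 TPM or more in both libraries (top, number of genes) and for the 9 genes with 95% intervals that cover counting error only (bottom). Dotted lines are at an absolute ratio of 0.5; Basp1 at 0.20 lies farthest from 0 and no gene of the 9 reaches the lines.

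The pathways in which these proteins act were followed through 9 lists holding 62 genes. Of these, 60 reached 1 TPM in both libraries, against 60.6% of all protein-coding genes, and Dpys and Upb1 did not. The lists were chosen with earlier results of these data known. This count, and the counts of single lists below, are therefore a description of the lists. The median TPM was 587 for the 9 genes, 4.76 for all protein-coding genes and 20.9 for those at 1 TPM or more in both libraries.

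The genes that act on Gap43 and the MARCKS proteins were all present, 12 of 12, with a median of 62.0 TPM. Calmodulin, which these proteins bind when calcium is low or high depending on the protein, was represented by Calm2 at 1441 ± 5.31 TPM. Among the kinase C genes of the list, which does not hold the whole family, the atypical Prkcz was highest at 54.4 ± 4.04 TPM. Prkce followed at 37.8 ± 1.58 TPM, Prkcb at 30.7 ± 3.15 TPM and Prkcd at 25.4 ± 0.127 TPM. Prkca was at 6.22 ± 0.467 TPM. Each kinase gene named here was lower per length than the lowest of the 9 genes.

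Of the relatives of Gap43 that share its calmodulin-binding IQ motif, Pcp4 reached 127 ± 15.9 TPM, Nrgn (neurogranin, a postsynaptic protein of mature neurons) 13.9 ± 0.721 TPM and Pcp4l1 6.99 ± 1.61 TPM. Proteins that bind Gap43 mRNA were led by Elavl4 (HuD, which stabilises it) at 215 ± 7.21 TPM. Khsrp, which promotes its decay, was at 28.5 ± 1.07 TPM, and Igf2bp1 (ZBP1, which carries it into axons) at 20.0 ± 2.53 TPM. The adducins, another group of membrane-skeleton proteins controlled by kinase C and calmodulin, ranged from 20.6 ± 0.827 TPM for Add3 to 173 ± 10.7 TPM for Add1.

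The CRMP kinases had a median of 15.8 TPM, with 10 of 10 at 1 TPM or more. Gsk3b led at 135 ± 0.0141 TPM and Gsk3a was at 13.7 ± 0.870 TPM. Cdk5 was at 60.9 ± 2.03 TPM. Of its activators, Cdk5r1 (p35) was at 93.0 ± 9.18 TPM and Cdk5r2 (p39) at 1.87 ± 0.156 TPM. Fyn was at 64.2 ± 2.20 TPM and Fes, also a kinase of CRMPs, at 1.88 ± 0.156 TPM.

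Upstream of the CRMPs, all 9 genes of the semaphorin 3A pathway were present, with a median of 54.0 TPM. The ligand Sema3a was lowest at 14.5 ± 0.622 TPM. Its receptor subunit Nrp1 was at 67.7 ± 0.672 TPM, and the signalling plexins ranged from Plxna4 at 22.0 ± 0.375 TPM to Plxna2 at 62.2 ± 3.39 TPM. Rac1, the GTPase downstream, was highest at 244 ± 4.30 TPM. Downstream, 7 of 7 CRMP partners were present, with a median of 70.7 TPM. Tubb3, the neuronal tubulin, was at 1509 ± 3.27 TPM, above each CRMP. The kinesin light chain Klc1 was at 361 ± 4.81 TPM and the heavy chain Kif5b at 126 ± 2.15 TPM. Cacna1b, an N-type calcium channel subunit bound by CRMP2, was lowest at 7.95 ± 1.31 TPM.

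The other growth cone proteins were the list closest in level to the 9 genes, with 12 of 12 present and a median of 311 TPM. Rtn1 at 1758 ± 64.9 TPM was near Marcksl1, and Stmn2 (SCG10, a microtubule regulator) at 626 ± 20.7 TPM and the actin-binding Dbn1 at 613 ± 9.64 TPM were near Gap43 and Crmp1. Enah, which extends actin filaments, was lowest at 29.1 ± 0.948 TPM.

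**Figure D5:**
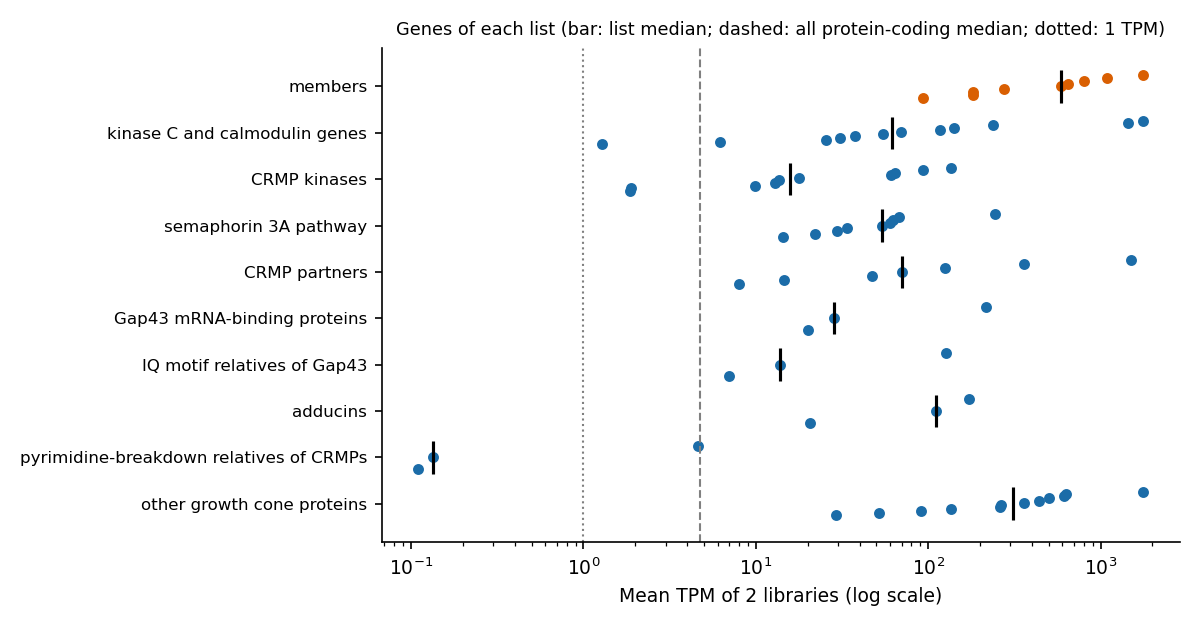
Mean TPM of the 2 libraries (x axis, log scale) for each gene of the 9 lists (blue) and the 9 genes described here (orange), with 1 line of points per list. Black bars are list medians (587 TPM for the 9 genes, 311 TPM for the other growth cone proteins), the dashed line is the median of all protein-coding genes (4.76 TPM) and the dotted line is at 1 TPM; only Dpys and Upb1 lie left of the dotted line.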

How the data were processed

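Data of 1 group of 2 libraries were used, with a gene and a transcript table for each. Reads were aligned to transcripts of GENCODE M4 on mm10, per the file headers and accompanying notes. The aligner, quantification tool and use of strand are not given in the sources used. The labels name total RNA, yet link the manual of a poly(A)-priming cDNA kit, and do not say how cDNA was primed. The deposited expected counts are the authors' estimated reads per feature. The deposited TPM values are corrected for effective length and scaled to a fixed sum, spike-ins included. The deposited percent values state what part of a gene's TPM a transcript makes up. The authors also deposited interval bounds of TPM with no stated level.

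Members and lists were chosen with earlier results of these data known. All 9 genes are named, with genes of 9 pathway lists, the highest, the lowest and those under 1 TPM before others; some genes that this rule names are not reported here. Coordinates, coding sequences and translations come from GENCODE M21 on GRCm38 (mm10), and promoters from RefSeq. The basic domain of Marcks is the 25 codons richest in lysine and arginine. The Dpysl2 sites were located by motif. Identity came from global alignment in Biopython 1.88. For pool ratios, expected counts were rounded, genes with fewer than 10 reads in all were dropped, TMM factors came from edgeR 4.0.16 (R 4.3.3), and 0.5 reads were added; this step was tested on simulated data. The log2 values are computed here. Intervals are exact binomial at 95% and cover counting error only. Python 3.11.15 was used with pandas 2.3.3, numpy 2.4.6, matplotlib 3.10.9 and scipy 1.17.1. Alternatives used DESeq2 1.42.0 size factors, spike-in totals over 97 control sequences, no count filter, posterior mean TPM, CPM (reads scaled to the mouse-gene total, without length), coding transcripts only, 1 TPM added before the log, a threshold of 5 TPM and 1 library at a time.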

Additional observations from a re-analysis of the deposited data

How the results depend on the processing

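Leaving out the correction for length moved 5 of the main quantities by more than the spread between the pools. By CPM the log2 ratio of Marcksl1 over Marcks was 1.89, that of Gap43 over Basp1 0.70 and the Dpysl2 share of the CRMPs 49.0%. By expected counts the long form was 19.0% of Crmp1 and 31.8% of Dpysl3. Scaling by spike-ins adds the same 0.20 to every pool ratio, which by construction turned those just below 0 positive: Gap43 (0.17), Marcks (0.12), Marcksl1 (0.16), Dpysl2 (0.15) and Dpysl4 (0.19). With 1 library at a time, which for means of 2 cannot leave the spread and so says nothing about stability, the ratio of Marcksl1 over Marcks ranged from 3.26 to 3.30, that of Gap43 over Basp1 from 0.99 to 1.22, the Dpysl2 share from 37.9 to 39.3%, the long-form share from 18.1 to 18.5% in Crmp1 and from 14.4 to 15.0% in Dpysl3, and 60 listed genes were at 1 TPM either way. At 5 TPM, 56 listed genes remained. Neighbours called apart numbered 7 of 8 by posterior mean TPM and by coding transcripts only, and 8 by CPM, in another order; with 1 library this has no value. No paired analysis was possible because there was 1 group. With 2 pools, only differences wider than the gap between them can be read, and at the lowest level, that of Dpysl4, counting error on the pool ratio was still -0.06 to 0.05.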
